A study of Mus musculus with 9 samples.

Results

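The genes of the cytoplasmic ribosomal proteins were compared between 3 mouse cell lines, made from bone marrow by transformation with BCR/ABLp185. They were chosen by name: symbols that begin with Rpl or Rps and a digit, together with Rplp0, Rplp1, Rplp2 and Rpsa, without the -ps pseudogenes and the Rps6k kinases. The rule found 93 of 50686 annotated genes. Of these, 46 encode proteins of the large (60S) subunit, 31 encode proteins of the small (40S) subunit and 16 carry a related name, mostly paralogs and copies. One of the 16, Rps19bp1, is not a ribosomal protein and meets the rule only by its letters. The level filter was passed by 86 of the 93, and the 7 left out were Rpl10l, Rpl39l, Rpl32l, Rps4l, Rps12l1, Rps27rt and Rps3a2, all of them related names.

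Each cytoplasmic ribosome carries one copy of nearly every ribosomal protein, so cells make these proteins in matched amounts. Their mRNAs are among the most abundant of a growing cell and share a run of pyrimidines at the 5 prime end, the 5 prime TOP, through which mTOR signalling controls their translation. MYC raises the output of ribosomes in growing blood cells and leukaemias. Many ribosomal protein genes have processed pseudogenes in the genome, and paralogs such as Rpl3l and Rpl22l1 can replace the main protein in some tissues.

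All 3 lines derive from C57BL/6N mouse bone marrow and carry BCR/ABLp185, the fusion kinase that transformed them, and they differ in Stat5: wt, Stat5a-/- (both Stat5a alleles knocked out) and Stat5b-/- (both Stat5b alleles knocked out). Each genotype was 1 cell line measured in 3 technical replicate libraries of mRNA, so a difference between genotypes cannot be told apart from a difference between lines, and all p-values measure the spread between libraries only. The submitters' free-text description calls the knockout samples wt, while their titles and genotype labels name the knockouts, which were followed here.

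The 9 libraries held 11948136 to 19016396 counted reads. Stat5a stood at 48.2, 36 and 45.3 normalised CPM (counts scaled to the depth of each library) in wt, at 11.8, 11.9 and 13.6 in Stat5a-/- and at 87.1, 91.7 and 72.2 in Stat5b-/-. Stat5b stood at 107, 103 and 106 in wt, at 145, 124 and 156 in Stat5a-/- and at 72.3, 58.5 and 59.5 in Stat5b-/-. Each knocked-out gene was therefore lowest in its own line, with reads remaining, and the files hold 1 count per gene, so reads on single exons were not separated. The 16 B-lineage markers were all detected in every line, with sums of 7682 to 8151 normalised CPM in wt, 10325 to 11062 in Stat5a-/- and 9472 to 10397 in Stat5b-/-. In each knockout line 9 of them passed upward, and 3 passed downward in Stat5a-/- and 4 in Stat5b-/-, the lowest at log2 fold changes of -8.59 and -6.59. The 16 T-lineage markers were detected as well, none at 0, and their summed level was 882 to 1201 normalised CPM in wt, 1546 to 1794 in Stat5a-/- and 1990 to 2816 in Stat5b-/-. Of 15 myeloid markers 4 passed the level filter, with sums of 157 to 208, 266 to 293 and 347 to 440, most of it from Ly6c2, and Ctsg at 0 in all 3 lines. The erythroid sums reached 14.2, 14.9 and 4.04 and the stromal sums 1.16, 1.08 and 1.45, with Slc4a1 and Col3a1 at 0 in every line.

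The start regions of the genes are shown first, because a pyrimidine run near the start is more frequent in these genes than in all promoters. RefSeq promoter sequences (build GRCm38.p6, 250 bases before to 50 after the start) matched 68 of the 93 genes. Each line below holds 30 bases, 5 prime to 3 prime on the gene's strand, with the longest pyrimidine run within 50 bases of the start in capitals. The run need not lie at the start itself. That of Rpl26 began 50 bases before it and that of Rps2 40 bases after it, and both reach the edge of the stretch searched. The genes shown are a choice of those described further on with a difference, and Rpl4 as an abundant member whose level passed no test.
Rps2, chr17:24720083-24720112, plus strand: aaattgtcccttccgcggcgCCTCCCTCTT
Rps10, chr17:27635227-27635256, minus strand: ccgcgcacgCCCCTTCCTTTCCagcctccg
Rps18, chr17:33955648-33955677, minus strand: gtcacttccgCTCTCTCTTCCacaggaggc
Rpl10a, chr17:28328450-28328479, plus strand: cgcgtggtggcgCCCCCCCagcggccgcaa
Rpl35a, chr16:33056468-33056497, plus strand: cggggcttgCCTTCCTCTTTCCgccatctt
Rpl28, chr7:4792952-4792981, plus strand: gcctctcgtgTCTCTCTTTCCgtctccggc
Rps12, chr10:23787182-23787211, minus strand: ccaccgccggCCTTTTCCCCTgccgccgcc
Rpl13a, chr7:45128722-45128751, minus strand: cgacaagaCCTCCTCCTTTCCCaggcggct
Rpl26, chr11:68901508-68901537, plus strand: tcccaaccTCCTCTCCCCTTTCgctccgag
Rpl27a, chr7:109519186-109519215, plus strand: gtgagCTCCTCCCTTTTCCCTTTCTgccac
Rps26, chr10:128626485-128626514, minus strand: aagccgccggaTCCTCTTTCgagtcttggc
Rpl4, chr9:64173405-64173434, plus strand: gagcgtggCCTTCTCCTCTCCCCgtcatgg

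A run of at least 8 pyrimidines on the gene's strand within 50 bases of the start stood in 52 of the 68 members (76.5%), against 35.7% of all 27025 promoters. On the opposite strand, such a run stood in 23.5% of the members and in 37.2% of all promoters. The longest run had a median of 10 bases in the members and 7 in all promoters.

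Other motifs were searched by their letters on both strands of the 300 bases. The ETS motif CCGGAAG stood in 36.8% of the members and 9.12% of all promoters, the SP1 motif GGGCGG in 58.8% and 35.9%, and the YY1 motif AAGATGG in 13.2% and 6.48%. The E-box CACGTG, the site of MYC, stood in 7.35% of the members and 7.24% of all promoters, and the TATA motif TATAAA in 10.3% and 14.2%. The STAT motif TTCNNNGAA was found in 4 members (5.88%), Rpl35, Rpl36al, Rpl4 and Rplp0, and in 8.47% of all promoters. None of these 4 genes passed the test against wt in either knockout line (edgeR quasi-likelihood test, Benjamini-Hochberg adjusted over all 13852 genes tested). These counts describe letters in a window and were not tested.

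Summed, the members received 2.73, 2.61 and 2.63% of the counted reads in wt, 2.64, 2.73 and 2.47% in Stat5a-/- and 2.00, 2.34 and 2.47% in Stat5b-/-. The means were 2.66% ± 0.0678 (SD, n = 3), 2.61% ± 0.131 and 2.27% ± 0.240. The Stat5a-/- and wt libraries overlapped, while every Stat5b-/- library lay below every wt library. On the TMM scale used for single genes, the sums were 25045 to 26587 normalised CPM in wt, 26618.5 to 29134 in Stat5a-/- and 20142 to 23559 in Stat5b-/-, so that there every Stat5a-/- library lay above every wt library. The mitochondrial ribosomal proteins, which serve the separate ribosome of the mitochondrion, took 0.592% ± 0.00730 in wt, 0.505% ± 0.0129 in Stat5a-/- and 0.450% ± 0.0368 in Stat5b-/-, and there both knockout lines lay below wt in every library. The sums rest on few genes: the 20 members with most reads, Rplp0, Rpl8, Rps26 and Rpl4 among them, held 81.0% of all reads on the members.

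The counted levels of single genes varied with how much of their sequence is unique. Reads that mapped to several places were not counted, so a read from a stretch shared with a pseudogene is missing. The share of 50-base windows (the read length) of each transcript that occurred in no other annotated transcript ranged from 0% for Rps12l1 to 100%, reached by Rpl3l, Rpl39l and Rps19bp1 among others, with a median of 45.5%. Per kilobase of gene model, the median level of the subunit genes was 9.87 normalised CPM among the 22 genes with under 25% of unique windows, 37.8 among 31 genes with 25 to 60% and 223 among 24 genes with at least 60%. Across the 77 subunit genes Spearman's rho between level and unique share was 0.56, given as a description over genes that share the same libraries.

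The highest levels per kilobase were those of Rplp1, a protein of the stalk (2704 normalised CPM per kb over all libraries), and Rpl8 (2356). The lowest were those of Rpl11, which binds MDM2 with Rpl5 when ribosomes are not assembled (1.40), Rpl24 (2.14) and Rps6, the substrate of the S6 kinases (2.61). The lowest and highest subunit genes thus lay 1932-fold apart, although their proteins are made in matched amounts. Uniqueness did not order the levels alone, since Rps29 had 64.2% of unique windows and only 2.67 normalised CPM per kb. The 5 members with under 10 reads in every library were Rpl10l, Rpl39l, Rps12l1, Rps27rt and Rps4l.

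**Figure D1:**
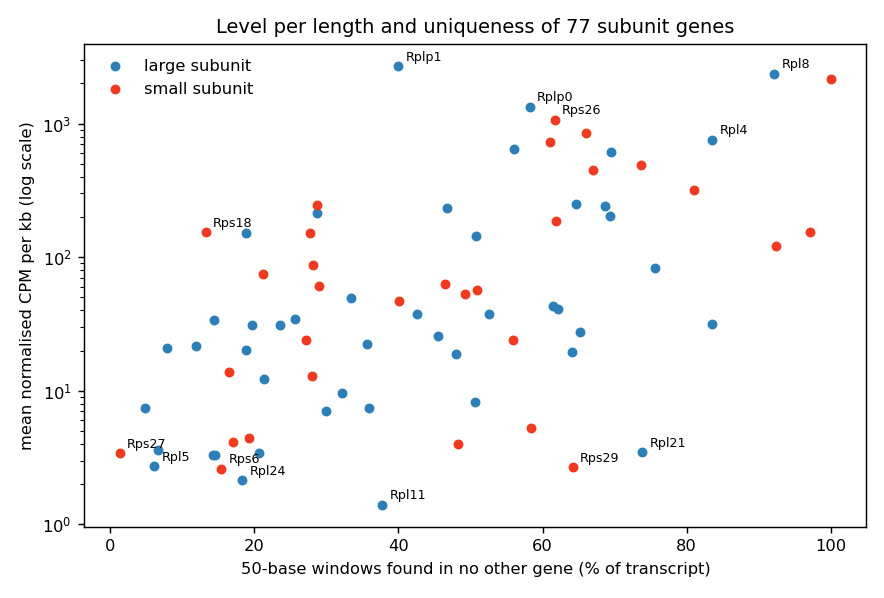
Each point is 1 of the 77 subunit genes, with the share of its 50-base windows found in no other gene on the x axis (percent) and its mean level over 9 libraries on the y axis (normalised CPM per kb, log scale). Rpl8 and Rpl4 stand at the upper right, and Rps27, Rpl5, Rps6 and Rpl24 at the lower left, while Rplp1, Rps29 and Rpl11 depart from that order.

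In Stat5a-/- against wt, 11 members were upregulated and 3 downregulated at an adjusted p below 0.05. Over all tested genes 19.8% passed upward and 16.3% downward, so both member shares, 12.8% and 3.49%, lay below the background. A change above 2-fold was seen in 2 members, Rpl36 and Rps14, against 14.2% of all genes in either direction. The median log2 fold change was 0.09 over the 86 members and 0.01 over all genes, but -0.018 and -0.0082 without the second Stat5a-/- library, and -0.052 and -0.13 with library totals in place of TMM. By subunit, 6 of 31 small subunit genes and 4 of 46 large subunit genes went up, and the 3 that went down, Rpl29, Rpl30 and Rpl13a, belonged to the large subunit. Of the 16 T-lineage markers 8 passed upward as well, and with their share as a covariate 14 members were higher and 6 lower, against 16.5% and 14.4% of all genes. Of the 11 rises 5 were lost in that fit, among them Rps18, Rpl35a and Rpl3l, with log2 fold changes of 0.57 ± 0.29, 0.30 ± 0.31 and 0.29 ± 0.33.

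**Figure D2:**
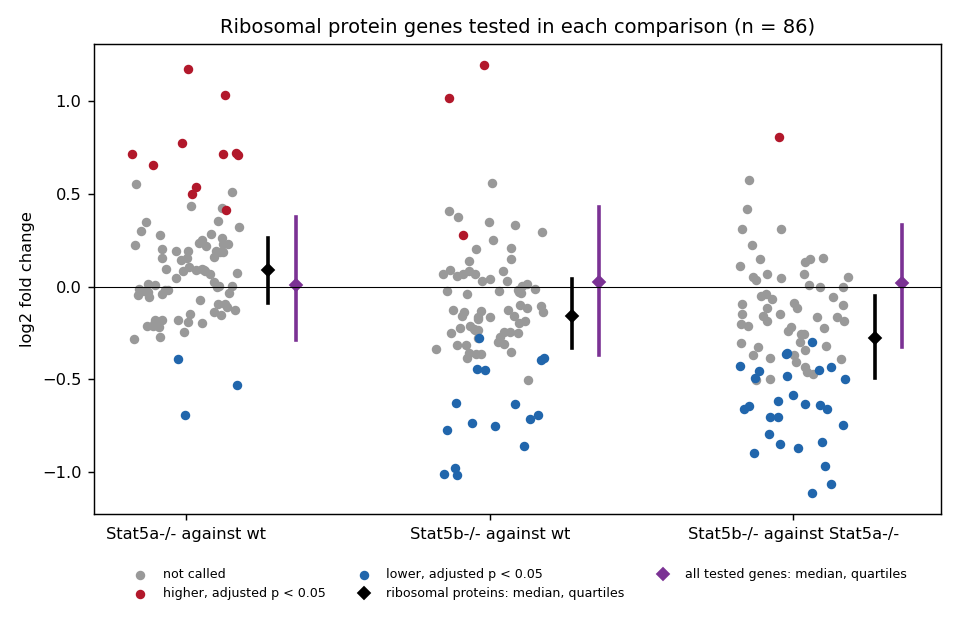
Each point is 1 of 86 tested ribosomal protein genes, with the log2 fold change on the y axis and the 3 comparisons on the x axis. Red and blue points passed an adjusted p of 0.05, and the diamonds with bars give the median and quartiles, at -0.28 for the members and 0.02 for all genes in Stat5b-/- against Stat5a-/-.

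Of the 11 upregulated members, 9 lay on chromosomes 17 and 18. These chromosomes hold 10 members (8 and 2), all 10 were tested, and the one that did not pass was Rpl7l1. Elsewhere 2 of 76 tested members went up, Rpl35a on chromosome 16 and Rps15 on chromosome 10. With the T-lineage share as a covariate, 5 of the 10 and 9 of the 76 went up, against 16.5% of all genes, and the median of the 10 was 0.68, while without the first wt library it was 7 of the 10 and 7 of the 76. The split by chromosome was chosen after the values were seen and was not tested. The members shared it with their neighbours: of all 1001 genes tested on chromosomes 17 and 18, 55.6% were upregulated with a median log2 fold change of 0.50, and the median of the 10 members was 0.72. Chromosome 19, which holds no member, had a median of 0.41 over 471 genes, and over the genes on chromosomes other than 17 and 18 the median was -0.02.

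**Figure D3:**
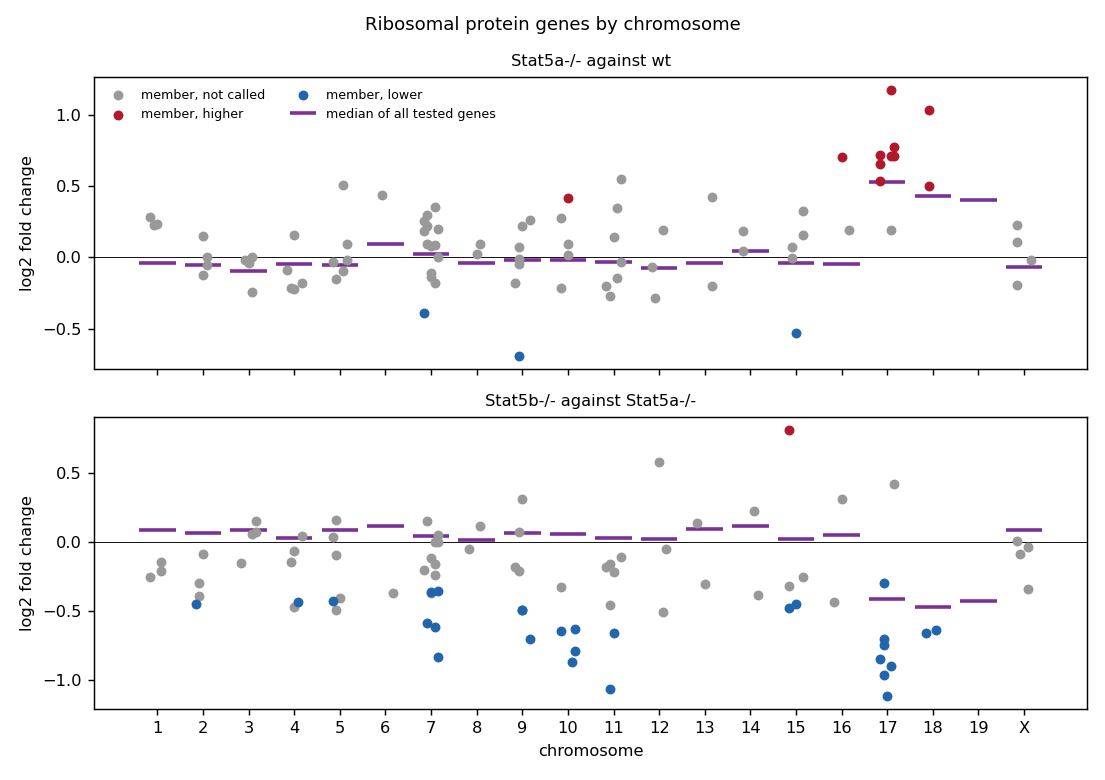
The points are the 86 tested ribosomal protein genes by chromosome (x axis) with their log2 fold change (y axis) in Stat5a-/- against wt (upper panel) and in Stat5b-/- against Stat5a-/- (lower panel). The bars are medians of all tested genes, which stand at 0.53 for chromosome 17 and 0.43 for chromosome 18 in the upper panel, where 9 of 10 members passed.

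Among the small subunit genes there, Rps2 (chr17:24718116-24721929), which lies at the mRNA entry of the 40S subunit, measured 423, 379 and 396 normalised CPM in wt, 675, 581 and 713 in Stat5a-/- and 360, 290 and 258 in Stat5b-/-. All Stat5a-/- libraries lay above all others and all Stat5b-/- libraries below wt. The log2 fold change was 0.72 ± 0.13 (SE; adjusted p = 0.000636, edgeR) in Stat5a-/- and -0.40 ± 0.13 (adjusted p = 0.0212) in Stat5b-/-, where the call was kept in 16 of 21 alternatives. It was lost there with the T-lineage covariate and without the first or last wt library or the second or last Stat5b-/- library.

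Rps10, one of the genes mutated in Diamond-Blackfan anaemia, measured 139, 114 and 130 in wt, 193, 188 and 225 in Stat5a-/- and 120, 104 and 101 in Stat5b-/-. It was 1.58-fold higher in Stat5a-/- than in wt (adjusted p = 0.000459, edgeR), with no overlap. In Stat5b-/- its log2 fold change was -0.24 ± 0.11 and did not pass (adjusted p = 0.0967, edgeR), and 1 of its libraries lay within the wt range.

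Rps14 (chromosome 18), whose loss on human chromosome 5q causes the anaemia of the 5q- syndrome, measured 220, 138 and 178 in wt, 318, 321 and 460 in Stat5a-/- and 235, 237 and 223 in Stat5b-/-. The rise to 2.05-fold in Stat5a-/- was among the largest of any member (adjusted p = 0.000328, edgeR), and no Stat5a-/- library overlapped with the others. Rps18 measured 311, 340 and 302 in wt, 542, 618 and 404 in Stat5a-/- and 229, 319 and 385 in Stat5b-/-, a 1.64-fold rise in Stat5a-/- (adjusted p = 0.00701, edgeR). Its lowest Stat5a-/- library was close to the highest Stat5b-/- library. Rps28 rose by 0.54 ± 0.11 on the log2 scale (adjusted p = 0.0016, edgeR).

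Of the large subunit genes on these chromosomes, Rpl36 measured 7.04, 4.90 and 4.68 normalised CPM in wt, 11, 13 and 13.3 in Stat5a-/- and 4.87, 7.59 and 6.63 in Stat5b-/-. It had the largest rise of the members, 2.26-fold in Stat5a-/- (adjusted p = 0.000409, edgeR), at 71 to 160 counted reads per library. Rpl10a, whose product sits at the mRNA exit side of the ribosome, measured 46.1, 41.0 and 41.6 in wt and 62.5, 61.4 and 88.6 in Stat5a-/-, a 1.65-fold rise (adjusted p = 0.00405, edgeR), and 47.6, 39.1 and 31.1 in Stat5b-/-. Rpl17 (chromosome 18) rose by 0.50 ± 0.15 on the log2 scale in Stat5a-/- (adjusted p = 0.0201, edgeR), and this call was kept in 15 of 21 alternatives.

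Rpl3l, the paralog of Rpl3 that is known from heart and skeletal muscle, followed another order. It measured 1.90, 2.47 and 1.85 in wt, 4.13, 4.07 and 2.43 in Stat5a-/- and 5.76, 4.10 and 4.49 in Stat5b-/-. It was upregulated in both knockout lines, by 0.77 ± 0.25 (adjusted p = 0.0279, edgeR) and 1.19 ± 0.24 (adjusted p = 0.00123), and the lowest Stat5a-/- library fell within the wt range. The first call was kept in 14 of 21 alternatives, and the second was lost with the T-lineage covariate, at 0.11 (adjusted p = 0.926, edgeR). The level was low, with 27 to 84 reads per library, and Rpl3l (chr17:24727820-24736143) lies next to Rps2. Rpl7l1, a biogenesis factor related to Rpl7, measured 112 ± 5.80 (SD, n = 3), 128 ± 8.71 and 104 ± 11.5 and passed neither test against wt.

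**Figure D4:**
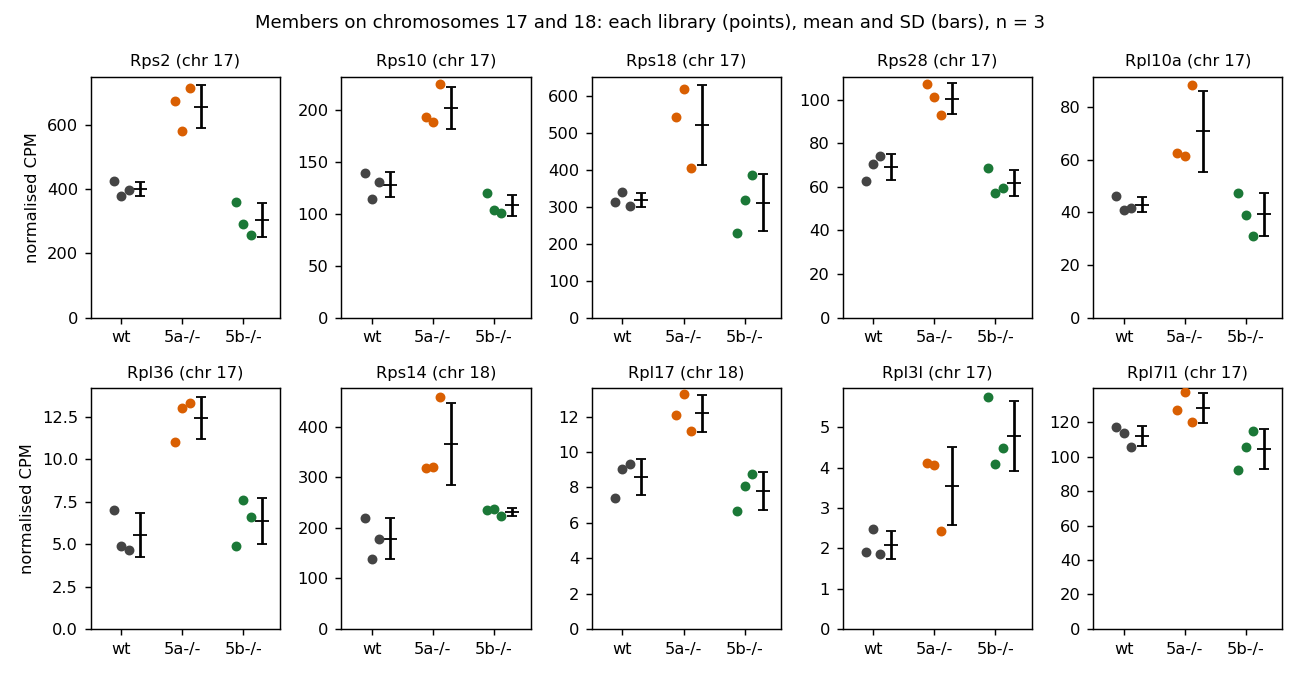
Each panel is 1 of the 10 members on chromosomes 17 and 18, with the normalised CPM of every library as points for wt, Stat5a-/- (5a-/-) and Stat5b-/- (5b-/-) and the mean ± SD (n = 3) as a bar. The Stat5a-/- points lie highest in all panels but that of Rpl3l, for which Stat5b-/- has the highest mean at 4.78.

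Away from these chromosomes 2 members went up and 3 down in Stat5a-/-, and 9 and 6 with the T-lineage share as a covariate. Of all genes there, 17% were higher and 17.1% lower without the covariate. Rpl29 measured 75.9, 65.7 and 67.3 in wt and 40.3, 47.4 and 41.7 in Stat5a-/-, and Stat5b-/- lay between them at 48.7, 60.5 and 50.9. It was 1.62-fold lower in Stat5a-/- (adjusted p = 0.00039, edgeR) and 1.30-fold lower in Stat5b-/- (adjusted p = 0.0152). Rpl30 went down in Stat5a-/- and up in Stat5b-/-, with 91.0, 102 and 99.7 in wt, 70.1, 68.8 and 63.5 in Stat5a-/- and 107, 115 and 132 in Stat5b-/-. The 3 lines did not overlap. Its log2 fold change was -0.53 ± 0.10 in Stat5a-/- (adjusted p = 0.0013, edgeR) and 0.28 ± 0.10 in Stat5b-/- (adjusted p = 0.0426), and the latter call was kept in 6 of 21 alternatives.

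Rpl35a, another Diamond-Blackfan gene, was higher in both knockout lines. It measured 50.4, 65.7 and 58.2 in wt, 112, 103 and 69.4 in Stat5a-/- and 86.8, 109 and 158 in Stat5b-/-, so that all knockout libraries exceeded all wt libraries. The fold changes were 1.63 (adjusted p = 0.0193, edgeR) and 2.03 (adjusted p = 0.00161). The first call was kept in 15 of 21 alternatives, and the second was lost with the T-lineage covariate, at a log2 fold change of 0.12 (adjusted p = 0.905, edgeR). Rps15 rose by 0.41 ± 0.15 on the log2 scale in Stat5a-/- (adjusted p = 0.0466, edgeR), with 1 wt library at 501 inside the Stat5a-/- range of 499 to 578, and this call was kept in 10 of 21 alternatives.

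In Stat5b-/- against wt, 3 members were upregulated and 16 downregulated. The background was 24.2% of all tested genes upward and 22.0% downward, against 3.49% and 18.6% of the members, so the downward share was near the background and the upward share was below it. A change above 2-fold was seen in 4 members, Rpl28, Rps12, Rpl3l and Rpl35a, against 19.1% of all genes. The median log2 fold change of the members was -0.16 and that of all genes 0.02, and 60 of 86 members had a negative value. The downregulated genes comprised 10 of 46 large subunit genes and 6 of 31 small subunit genes. The summed T-lineage markers were higher in every Stat5b-/- library than in every wt library, and 15 of 16 of them passed upward. Their ranges did not overlap between the 3 lines, so a covariate built on them cannot be separated from genotype. With the share of reads on these markers as a covariate, 6 of 86 members were lower instead of 16 and 3 other members were higher in place of the 3 rises. Over all genes 7.13% were then lower and 7.53% higher, so the lower share of the members was again near that of all genes. The median log2 fold changes were then -0.10 for the members and -0.02 for all genes. With this covariate 13 of the 16 falls were lost, among them Rpl28, Rpl13a and Rpl41, with log2 fold changes of -0.034, -0.40 and -0.27. Rps12 and Rpl27a were lost at -0.84 ± 0.37 and -1.07 ± 0.40, and the SE of Rpl27a was 0.14 without the covariate. The log2 fold changes of Rpl29, Rpl30, Rps6, Rpl27 and Rpl21 changed sign to 0.14, -0.032, 0.13, 0.053 and 0.052. In such bulk samples fewer cells of a type and less RNA per cell cannot be told apart. Whether the T-lineage reads came from other cells or from the cells of each line itself was not tested.

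Rpl28 measured 104, 72.4 and 87.0 normalised CPM in wt, 64.5, 77.1 and 91.1 in Stat5a-/- and 44.8, 47.8 and 37.2 in Stat5b-/-. It was 2.02-fold lower in Stat5b-/- (adjusted p = 0.000165, edgeR), with no overlap, while Stat5a-/- overlapped with wt. With the T-lineage share as a covariate the log2 fold change of Rpl28 was -0.034 (adjusted p = 0.961, edgeR). Rps12 measured 35.2, 37.4 and 34.7 in wt, 29.9, 32.4 and 30.2 in Stat5a-/- and 13.8, 19.7 and 19.9 in Stat5b-/-, 2.01-fold lower in Stat5b-/- (adjusted p = 5.19e-05, edgeR). Rps12 had 16.4% of unique windows.

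Rpl13a, a large subunit protein also released to repress inflammatory mRNAs, went down in both knockout lines, with 115, 94.5 and 103 in wt, 72.4, 84.5 and 81.6 in Stat5a-/- and 45.7, 58.6 and 54.3 in Stat5b-/-. The log2 fold changes were -0.39 ± 0.12 (adjusted p = 0.0199, edgeR) and -0.98 ± 0.12 (adjusted p = 2.11e-05), and the first call was kept in 17 of 21 alternatives. It was lost with the T-lineage covariate (-0.13) and without the first or last wt library or the first Stat5a-/- library. The 3 lines formed 3 separate levels. Of its gene model, 35.4% overlapped with exons of other genes.

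Rpl26, which also binds the p53 mRNA, measured 295, 455 and 393 in wt, 370, 372 and 250 in Stat5a-/- and 209, 166 and 253 in Stat5b-/-, and was 1.82-fold lower in Stat5b-/- than in wt (adjusted p = 0.00274, edgeR). Its wt libraries spread widely but stayed above all Stat5b-/- libraries. Rpl41, the shortest ribosomal protein, measured 971, 777 and 800 in wt, 840, 1092 and 789 in Stat5a-/- and 413, 559 and 515 in Stat5b-/-, 1.71-fold lower in Stat5b-/- (adjusted p = 0.000951, edgeR). Rpl27a was 1.69-fold lower (adjusted p = 0.00072, edgeR), at 67.7, 66.1 and 60.8 in wt and 33.0, 35.5 and 46.8 in Stat5b-/-.

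Rps26, an abundant small subunit protein near the mRNA exit, measured 1641, 2012 and 1934 in wt, 1839, 2237 and 1574 in Stat5a-/- and 1263, 1113 and 1240 in Stat5b-/-. It was 1.55-fold lower in Stat5b-/- (adjusted p = 0.00203, edgeR), and wt and Stat5a-/- overlapped. Rps6 was downregulated as well, with a log2 fold change of -0.69 ± 0.22 (adjusted p = 0.0205, edgeR), from 35 to 94 reads per library. This call was kept in 16 of 21 alternatives. It was lost with the T-lineage covariate, with pseudogene reads added, and without the first or last wt library or the last Stat5b-/- library. Rpl23a, Rpl27, Rps25, Rpl37, Rpl21, Rps2, Rpl29 and Rps20 made up the rest of the 16, with log2 fold changes from -0.74 for Rpl27 to -0.28 for Rps20. The call of Rps20 was kept in 12 of 21 alternatives.

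**Figure D5:**
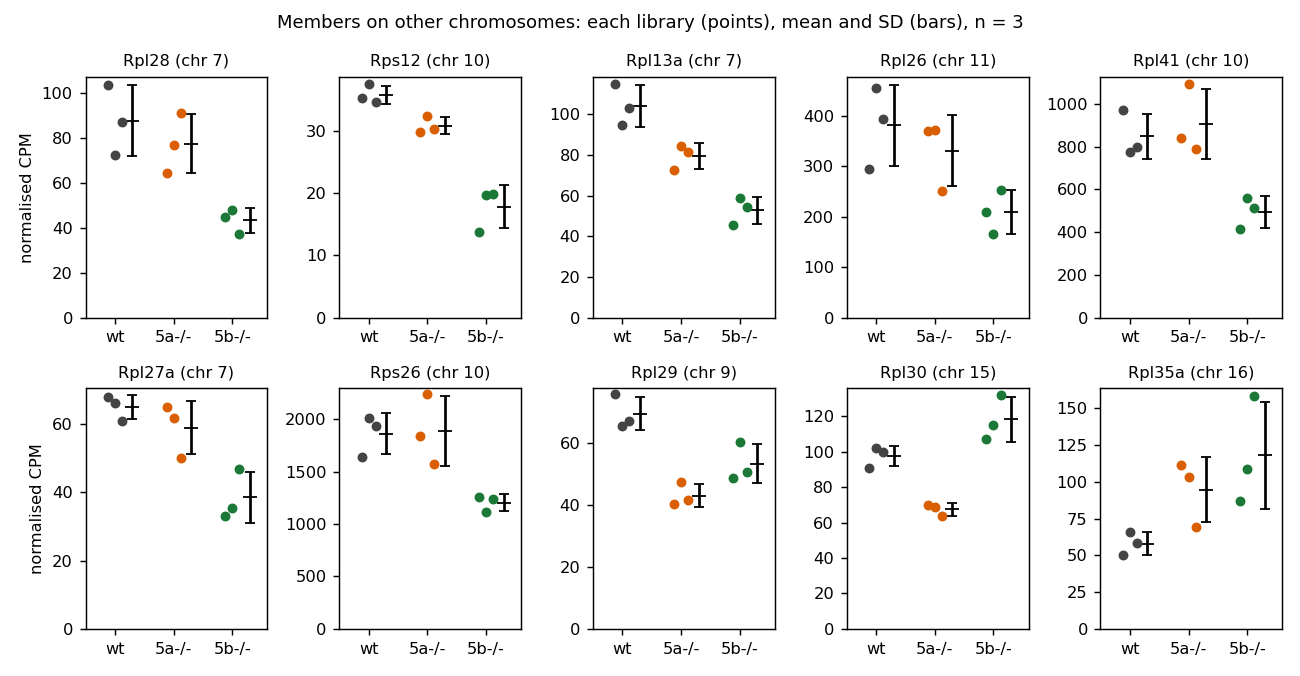
Each panel is 1 of 10 members on other chromosomes, with the normalised CPM of every library as points and the mean ± SD (n = 3) as a bar. Rpl28, Rps12, Rpl13a, Rpl26, Rpl41, Rpl27a and Rps26 have their lowest mean in Stat5b-/-, Rpl29 is lowest in Stat5a-/-, Rpl30 is highest in Stat5b-/- and lowest in Stat5a-/-, and Rpl35a is lowest in wt.

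Both comparisons against wt share the wt libraries, so the knockout lines were also compared directly. In Stat5b-/- against Stat5a-/-, 1 member was higher and 28 were lower. Over all genes 16.4% were higher and 17.5% lower, against 1.16% and 32.6% of the members. The median log2 fold change of the members was -0.28, that of all genes was 0.02, and 68 of 86 members had a negative value. With the length offset these medians were -0.14 and 0.0009. A change above 2-fold was seen in Rps2 and Rpl23a alone, against 11.4% of all genes. With the T-lineage share as a covariate, 8 of 86 members were lower instead of 28 and 2 were higher, when 7.98% of all genes were lower and 6.01% higher, so that the lower share of the members lay near that of all genes. The median log2 fold change of the members was -0.29 in that fit and that of all genes -0.02. The log2 fold changes of Rpl3 and Rplp1 changed sign to 0.052 and 0.038.

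Of the 28 lower members, 9 lay on chromosomes 17 and 18 (Rps2, Rps10, Rps14, Rps18, Rps28, Rpl7l1, Rpl10a, Rpl17 and Rpl36), where 48.2% of all tested genes were also lower. The other 19 came from 76 tested members elsewhere (25%), where 15.2% of all genes were lower. Rps2 was 2.17-fold lower in Stat5b-/- than in Stat5a-/- (adjusted p = 2.39e-05, edgeR), and Rps10 was 1.87-fold lower (adjusted p = 5.1e-05). Rpl30, at 1.75-fold, was the single higher member (adjusted p = 6.47e-05, edgeR). Rpl23a measured 3.22, 4.07 and 3.79 normalised CPM in Stat5a-/- and 1.65, 1.57 and 2.06 in Stat5b-/- and was 2.09-fold lower (adjusted p = 0.00453, edgeR), with 14.3% of unique windows and 62.3% of its gene model overlapping other exons. It had 23 to 58 reads per library. The call was lost with the T-lineage covariate, and over the alternatives the log2 fold change ranged from -1.19 to -0.46.

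Several abundant members differed little. Rplp0, the stalk base and a common reference gene, measured 2639, 2213 and 2454 in wt, 2141, 2119 and 2309 in Stat5a-/- and 1800, 2148 and 2184 in Stat5b-/-. It passed no test, with -0.15 ± 0.11 for Stat5a-/- and -0.25 ± 0.11 for Stat5b-/- relative to wt on the log2 scale. Rpl8 likewise passed none, while Rplp1 passed between the knockout lines, where Stat5b-/- stood lower at -0.49 ± 0.15 on the log2 scale (adjusted p = 0.0234, edgeR).

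Rps3, at the mRNA entry of the 40S subunit, was the steadiest of the abundant members with 710, 629 and 660 in wt, 701, 706 and 710 in Stat5a-/- and 666, 676 and 774 in Stat5b-/-. Both log2 fold changes against wt were 0.08 ± 0.10. Rps19, the most often mutated Diamond-Blackfan gene, had 0.25 ± 0.14 in both comparisons against wt and passed neither. Rpsa, the 67 kDa laminin receptor, measured 79.9 ± 2.22 in wt, 79.1 ± 4.73 in Stat5a-/- and 68.2 ± 2.72 in Stat5b-/- (SD, n = 3), and its adjusted p of 0.056 in Stat5b-/- against wt (edgeR) missed the threshold.

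Rpl5 and Rpl11, which form the 5S particle that restrains MDM2, passed no test, but both were counted at low depth, with 84 to 245 and 25 to 89 reads per library. Rpl22 measured 258 ± 17.5 in wt, 242 ± 37.7 in Stat5a-/- and 231 ± 26.9 in Stat5b-/- (SD, n = 3), and its paralog Rpl22l1, which Rpl22 is known to repress, 46.9 ± 14.6, 46.2 ± 16.4 and 48.2 ± 17.1, with no test passed. Rpl10, Rpl23 and Rps27a, the last a fusion with ubiquitin, passed none either, and Rpl3 was lower only in Stat5b-/- against Stat5a-/- (-0.48 ± 0.15 on the log2 scale, adjusted p = 0.0246, edgeR). Of the other related names, Rps27l, Rpl36al, Rpl37rt, Rps3a3 and Rps19bp1 passed no test. Rpl6l was lower in Stat5b-/- against Stat5a-/-, a call kept in 13 of 21 alternatives.

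Genes around the ribosomal proteins were counted from lists. Of the ribosomal proteins that the rule leaves out by name, Fau, the ubiquitin-like fusion of Rps30, was lower in Stat5b-/- than in wt (log2 fold change -0.80 ± 0.22, adjusted p = 0.00977, edgeR), and Rack1 passed no test. Of 28 translation factors and other 5 prime TOP mRNAs, 2 were higher and 1 lower in Stat5a-/-, and 0 higher and 11 lower in Stat5b-/-, with medians of 0.03 and -0.27. These are 7.14% and 3.57% in Stat5a-/-, against 19.8% and 16.3% of all genes, and 0 and 39.3% in Stat5b-/-, against 24.2% and 22.0%. Eef1g and Eef1b2, subunits of elongation factor 1, were the 2 that went up in Stat5a-/-, by 0.46 ± 0.10 and 0.36 ± 0.11. Npm1, the nucleolar phosphoprotein nucleophosmin, went down in both, by -0.49 ± 0.16 (adjusted p = 0.0281, edgeR) and -1.01 ± 0.16 (adjusted p = 0.000189).

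Of 26 tested genes for the import and assembly of ribosomal proteins, 0 were higher and 5 lower in Stat5a-/-, and 1 was higher and 17 were lower in Stat5b-/-, with a median of -0.39 there. The lower shares are 19.2% in Stat5a-/-, against 16.3% of all genes, and 65.4% in Stat5b-/-, against 22.0%. Heatr3, which carries Rpl5 into the nucleus, measured 106, 108 and 98.9 normalised CPM in wt, 83.3, 72.9 and 71.9 in Stat5a-/- and 27.4, 27.3 and 31.1 in Stat5b-/-. The 3 lines formed 3 levels, and the log2 fold change in Stat5b-/- was -1.86 ± 0.11 (adjusted p = 1.42e-08, edgeR). Of 79 tested mitochondrial ribosomal protein genes, 7 were higher and 15 lower in Stat5a-/-, and 3 were higher and 37 lower in Stat5b-/-, with medians of -0.10 and -0.33. Their downward share in Stat5b-/- was 46.8%, against 18.6% for the cytoplasmic members and 22.0% for all genes, and the difference between these shares was not tested. None of the lists around the ribosomal proteins was counted with the T-lineage share as a covariate. In that fit 7.13% of all genes were lower in Stat5b-/- against wt.

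Among 23 genes that control ribosomal protein synthesis, 6 were higher and 6 lower in Stat5a-/-, and 3 were higher and 7 lower in Stat5b-/-. These are 26.1% in each direction in Stat5a-/-, against 19.8% and 16.3% of all genes, and 13% and 30.4% in Stat5b-/-, against 24.2% and 22.0%. Myc measured 1150, 1059 and 1165 in wt, 720, 723 and 857 in Stat5a-/- and 330, 305 and 247 in Stat5b-/-. All 3 lines were apart, with log2 fold changes of -0.55 ± 0.12 (adjusted p = 0.00287, edgeR) and -1.93 ± 0.13 (adjusted p = 5.29e-08). Mtor rose in Stat5b-/- by 0.68 ± 0.14 (adjusted p = 0.00119, edgeR), Rptor, its partner, rose in both knockout lines by 0.50 ± 0.14 and 0.62 ± 0.14, and Akt1s1, an inhibitor of the complex, fell to log2 fold changes of -0.86 ± 0.16 and -1.11 ± 0.16.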

How the data were processed

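Libraries of polyA RNA were made by the authors with the SENSE mRNA-Seq kit from 3 cell lines, in 3 technical replicates each, and sequenced single-end with 50-base reads. Per the submitters' methods and the file headers, adapters were removed with Trimmomatic, reads were mapped with STAR to GRCm38 (GENCODE M13), and the authors deposited raw gene counts from featureCounts 1.5.1 over merged exons. Multi-mapped reads, reads on more than one gene and strand were not used in counting, so reads in exons that a member shares with another gene are missing. Reads from an antisense transcript outside other annotated exons cannot be told apart from those of the member.

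Gene IDs were matched to symbols for 50376 of 50686 genes. Counts were fitted with edgeR 4.0.16 (R 4.3.3; TMM, filterByExpr, quasi-likelihood F test) over all 9 libraries, and p-values were Benjamini-Hochberg adjusted over 13852 genes. The study's methods name DESeq2 with a 2-fold threshold, and DESeq2 1.42.0 and that threshold were alternatives. SE is the log2 fold change divided by the root of F. Normalised CPM used TMM library sizes. Alternatives were other normalizations and filters, each library left out, a replicate block, GC and length offsets (lowess span 0.5; GC known for 99.8% of the genes), the T-lineage share as a covariate and pseudogene reads added. The edgeR and DESeq2 steps were tested on simulated counts. Library sizes of 11948136 to 19016396 reads limit genes with few reads most. Replicate numbers did not pair the libraries: deviations of same-numbered libraries correlated at -0.09 on average (9 pairs).

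The members and lists were chosen with earlier results of these data known. Genes are named by rule: the 6 largest rises and falls among called members whose libraries do not overlap, the detected paralogs, 14 fixed members, the 3 highest and lowest levels per length, members under 10 reads, Stat5a, Stat5b and Myc, and up to 2 rises and 2 falls of each list. Values of some single genes are not reported here.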

Additional observations from a re-analysis of the deposited data

Results flagged for a closer look

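The 283 -ps pseudogene loci lie outside the comparisons, and reads were counted on 255 of them. They took 0.0668% ± 0.00178 (SD, n = 3) of the counted reads in wt, 0.0761% ± 0.00766 in Stat5a-/- and 0.0605% ± 0.00591 in Stat5b-/-, or 2.52, 2.91 and 2.67 reads per 100 reads on the members. These loci were flagged because they hold signal in data that the comparisons do not use.

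The 130 that passed the level filter had a median log2 fold change of 0.25 in Stat5a-/- against wt, with 14 higher (10.8%, against 19.8% of all tested genes) and 0 lower (edgeR, adjusted p below 0.05; 26 had a negative value). Of 14 tested loci that lie outside chromosomes 17 and 18 but are named after a parent gene there, 8 were higher, with a median of 0.75. Of 111 named after other parents, 4 were higher, with a median of 0.20. This split follows the split by chromosome, which was chosen after the values were seen. Several of the loci share a parent and are not independent, and the difference was not tested. Rps10-ps1 on chromosome 3 measured 469, 539 and 538 reads in wt, 744, 627 and 608 in Stat5a-/- and 428, 355 and 278 in Stat5b-/-, and its log2 fold change of 0.84 ± 0.12 in Stat5a-/- stood beside 0.66 ± 0.11 for Rps10. Whether these reads came from the locus or from the parent mRNA was not tested.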

How the results depend on the processing

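The counts of members called depended most on the T-lineage share as a covariate, which gave 14 higher and 6 lower in Stat5a-/- against wt, 3 higher and 6 lower in Stat5b-/- against wt, and 2 higher and 8 lower in Stat5b-/- against Stat5a-/-. It reversed Rpl29 (0.14), Rpl30 (-0.032), Rps6 (0.13), Rpl27 (0.053) and Rpl21 (0.052) in Stat5b-/- against wt and Rpl3 (0.052) and Rplp1 (0.038) in Stat5b-/- against Stat5a-/-, and the cause was not tested. The summed markers did not overlap between the lines, so this covariate cannot be separated from genotype. Library totals without TMM gave 7 higher in Stat5a-/- against wt and 2 higher and 19 lower between the knockout lines, where they put the median of all genes at -0.13 and 0.13 instead of 0.01 and 0.02; of all called genes 38.1% were then higher instead of 54.9%, and 63.6% instead of 48.3%. The GC offset gave 5 lower in Stat5a-/- and 23 lower in Stat5b-/- against wt, when 22.7% and 28.9% of all genes were lower. Between the knockout lines it gave 2 higher, against 21.1% of all genes. The length offset gave 3 higher and 22 lower between them, against 14.6% and 17.8% of all genes. With a fold above 2 the higher and lower counts were 2 and 0, 2 and 2, and 0 and 2 in the order of the report; at an adjusted p below 0.1, 25 were lower in Stat5b-/- against wt and 2 higher between the knockout lines. Leaving out 1 library gave 7 to 14 higher and 2 to 3 lower in Stat5a-/- against wt, 2 to 5 and 9 to 20 in Stat5b-/- against wt, and 1 to 2 and 20 to 29 between the knockout lines. The lowest count of 7 came without the first or the second Stat5a-/- library, and the 5 and the 9 came without the first wt library. The replicate block, whose numbers share only a name, gave 10 and 3, 2 and 14, and 1 and 23. DESeq2 gave 11 and 3, 3 and 21, and 1 and 28. The calls kept in all 21 alternatives that use the same threshold were Rps2, Rps10, Rpl10a, Rpl36 and Rps14 upward and Rpl29 and Rpl30 downward in Stat5a-/-, Rps26 and Rpl26 downward in Stat5b-/-, and Rpl30 upward and Rps26, Rps2, Rps10 and Rps28 downward between the knockout lines. Members under 100 reads, 8 of the subunit genes in every library, are limited most by depth. The summed shares of counted reads moved by less than the spread between libraries when pseudogene reads were added or the subunit lists alone were summed. With 3 libraries per line, leaving 1 out always moves a mean by less than their SD, so those fits cannot show how stable the shares are. The TMM scale differed, since Stat5a-/- rather than wt had the highest mean there (27759 and 25585 normalised CPM).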

Other observations

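One processed copy stood apart from all others. Rplp0-ps1 on chromosome 3, named after Rplp0, held 14, 13 and 17 reads in wt, 481, 451 and 416 in Stat5a-/- and 11, 6 and 13 in Stat5b-/-. Its log2 fold change was 5.41 ± 0.21 in Stat5a-/- against wt (adjusted p = 4.12e-10, edgeR) and -0.23 ± 0.32 in Stat5b-/- against wt (adjusted p = 0.593). Rplp0 itself passed no test, and its 25604 to 43826 reads per library exceeded those of the copy in every line. Rpl17-ps5 on chromosome 5 was the next largest, with a log2 fold change of 1.66 ± 0.26 in Stat5a-/- (adjusted p = 0.000241, edgeR). Both loci were singled out after their values were seen.

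Rps26-ps1 on chromosome 8 moved with its parent in Stat5b-/-, with 754, 1165 and 954 reads in wt and 411, 471 and 544 in Stat5b-/- and a log2 fold change of -0.67 ± 0.20 (adjusted p = 0.0133, edgeR), beside -0.63 ± 0.14 for Rps26.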
